A study of Mus musculus with 4 samples.

Results

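The regions described here are the high-scoring peaks of proliferating mouse embryonic fibroblasts. They are the peaks on chromosomes 1 to 19 that carry a deposited score of 50 or more in the list from the proliferating immunoprecipitate. There were 1743 of them among 103832 autosomal peaks of that list, 1.68%, and among 809030 peaks in both lists of the series. The remaining 102089 autosomal peaks of the list are called lower-scoring below. The score chose the regions, so scores are given as a description only, and no test was made on them.

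The cells were primary fibroblasts of the strain C57BL/6, prepared from E13.5 embryos and harvested at passage 4. Asynchronous growth in 10% serum gave the proliferating state. Arrest was brought about by 72 hours in 0.1% serum. Each of these growth states had 1 library immunoprecipitated with antibodies against pRb and 1 input library. The inputs were not analysed here. All 4 samples were labelled KO, proliferating and arrested alike, without the name of the gene that was lost, so it is not known here whether the cells contained pRb. Chromatin had been fixed with 2 cross-linkers before shearing, ethylene glycol bissuccinimidylsuccinate and formaldehyde. With 1 library in each growth state there was no replicate, and the spread between cultures could not be measured.

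pRb, the product of the retinoblastoma gene, binds E2F transcription factors and holds cell cycle genes off in resting cells. Cyclin-dependent kinases phosphorylate it as cells commit to division, and it then releases E2F. It also recruits proteins that compact chromatin. The title of the series places it in the silencing of endogenous retroelements, the copies of ancient viruses and other mobile DNA scattered through the genome. A peak in a chromatin immunoprecipitation experiment is a stretch where sequenced fragments pile up above a background model. Without pRb in the cells, such stretches would not be sites of pRb, and they are treated here as calls. No gene or repeat annotation of the build mm9 was used here, so regions are given by position.

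The high-scoring peaks were mostly very narrow. Their median width was 83 bp, with quartiles of 69 and 199 bp and a range from 62 to 798 bp. The lower-scoring peaks had a median of 154 bp, with quartiles of 135 and 186 bp. Together the high-scoring peaks covered 241 kb, 1.42% of the bases in autosomal proliferating peaks. Width and score come from the same call, so the contrast in width is a description of the list.

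Widths fell into separate groups, with a trough near 120 bp. Of the high-scoring peaks, 1092 (62.7%) were narrower than 120 bp, and of the lower-scoring peaks 12367 (12.1%) were. These narrow high-scoring peaks had a median of 71 bp and quartiles of 66 and 80 bp. The other 651 high-scoring peaks, called broad below, had a median of 236 bp and quartiles of 187 and 289 bp. The limit of 120 bp was chosen after the widths were seen.

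**Figure D1:**
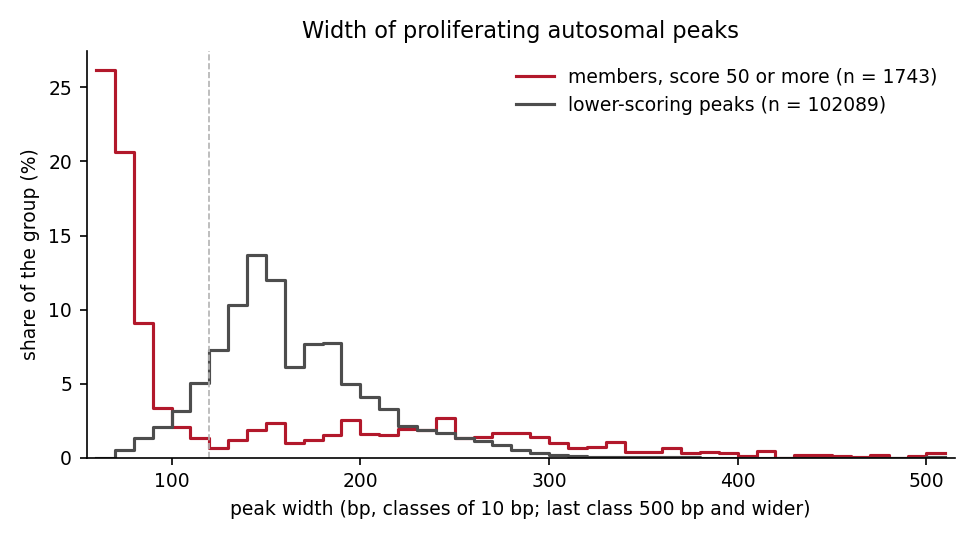
Share of each group of autosomal proliferating peaks (y axis, %) in width classes of 10 bp (x axis), with high-scoring peaks in red, lower-scoring peaks in grey and the limit of 120 bp dashed. The red line is highest in its first class, while the grey line is highest near its median of 154 bp.

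The share of peaks that reached a score of 50 was highest at the narrow end, lowest in the middle of the width range and higher again from 300 to under 500 bp. From 60 to under 80 bp, 816 of the peaks were high-scoring, 60.7% (95% Wilson interval 58.1 to 63.3). From 120 to under 140 bp the share was 0.178% (0.126 to 0.252). From 300 to under 400 bp it was 12.3% (10.2 to 14.6), and from 400 to under 500 bp 22.2% (15.4 to 30.9). At 500 bp and wider 6 of 60 were high-scoring, 10.0% (4.66 to 20.1). High scores were therefore rarest around the widths at which most peaks of the list lay. The narrowest width in the list, 62 bp, belonged to 110 high-scoring peaks and 1 lower-scoring peak. No high-scoring autosomal peak reached 1000 bp, whereas 12 lower-scoring ones did.

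Scores were shared between many peaks. Among the high-scoring peaks 930 (53.4%) had 1 of 3 values, 58.79 (596 peaks), 68.75 (284) or 79.11 (50). All but 5 of those 930 were narrow. The 1092 narrow peaks had 60 different scores between them, while the 651 broad peaks had 356. Below the limit the commonest values above 30 continued the same steps, with 31.82 in 5089 peaks, 40.27 in 2676 and 49.28 in 1276. From 31.82 to 68.75 the median width at these values went down from 112 bp through 95, 82 and 72 to 64 bp, and at 79.11 it was 70 bp.

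The limit of 50 thus lay between 2 common values of the narrow peaks. Scores from 45 to under 50 held 1386 narrow peaks, scores from 50 to under 55 held 56, and scores from 55 to under 60 held 647. Broad peaks fell without such a gap, from 755 at 45 to under 50 to 344 at 50 to under 55. Hence peaks just above the limit were mainly broad (median 221 bp at 50 to under 55), and those of 65 or more were mainly narrow (median 67 bp).

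Broad peaks showed a different pattern, in which the score depended on the width in steps. Of the 651 broad peaks, 362 (55.6%) had both the width and the score of another high-scoring peak, as had 990 of the narrow ones (90.7%). Of the 179 peaks that were 248 bp wide, 4 scored 50.02, and the commoner scores at that width were 22.98 (82 peaks), 29.06 (41), 35.62 (21) and 42.62 (9). At 250 bp, 8 peaks scored 49.70, and at 252 bp, 3 scored 49.38. A difference of 2 bp in width thus put otherwise matching peaks on opposite sides of the limit.

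**Figure D2:**
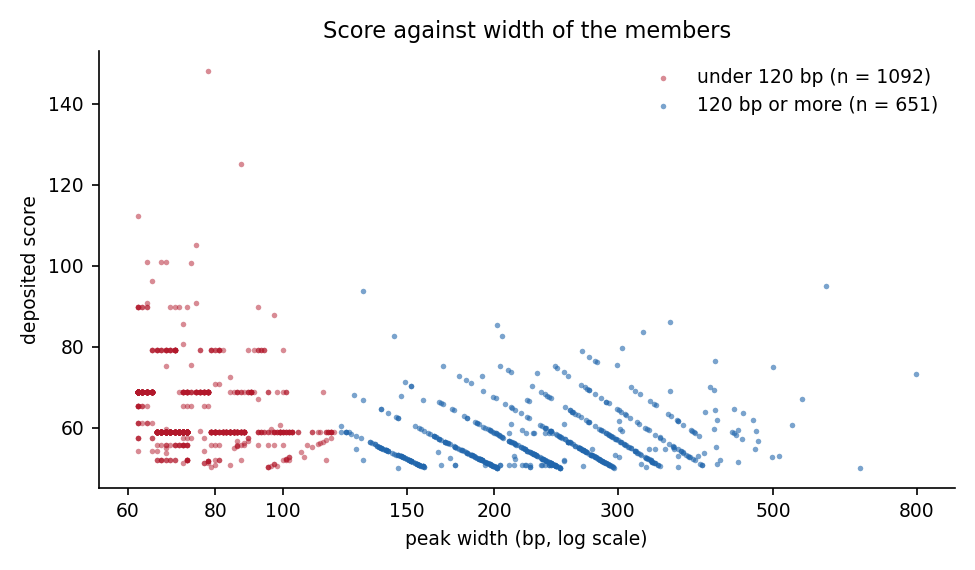
Deposited score (y axis) against width in bp (x axis, log scale) for each high-scoring peak, with those under 120 bp in red and the others in blue. Red points line up at fixed scores such as 58.79 and 68.75. Many blue points lie on parallel bands in which the score drops as the width grows. Other blue points share a fixed score, such as 50.80, over several widths.

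Score values next to the limit were shared as well, and ties were ordered by position. The lowest 3 high-scoring peaks all scored 50.02 and measured 248 bp. They lay on chromosome 2 (46221533 to 46221780), chromosome 7 (85930658 to 85930905) and chromosome 10 (116402408 to 116402655), at 488, 2639 and 1640 bp from an arrested peak. Of the 4 peaks with this score and width, the remaining 1, later in the order, overlapped an arrested peak. The highest 3 below the limit scored 49.97 and measured 160 bp. They lay on chromosome 1 (34876290 to 34876449) and chromosome 13 (102712071 to 102712230), at 3647 and 649 bp from an arrested peak, and on chromosome 14 (103673263 to 103673422), where the peak overlapped one.

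Of the 10 highest scores 9 belonged to narrow peaks, from 62 to 87 bp wide. The exception was a 594 bp peak on chromosome 5 (14949604 to 14950197) with a score of 95.06. It overlapped an arrested peak of 2173 bp (14947853 to 14950025), whose own score of 24.60 stood at the percentile 2.44 of the arrested autosomal list. Its nearest high-scoring neighbour, 92282 bp away, was the widest of all, at 798 bp (15042479 to 15043276, score 73.31). These 2 peaks on chromosome 5 were thus among the widest of the group and lay within 100 kb of each other. The top score, 148.23, was that of a 78 bp peak on chromosome 13 (5091417 to 5091494) lying wholly inside an arrested peak of 398 bp with a score of 36.59. The next, 125.18, was that of an 87 bp peak on chromosome 8 (72425033 to 72425119), which lay wholly inside an arrested peak of 713 bp with a score of 75.03. Both arrested partners scored below the arrested median of 97.45. The other 7 of the 10 overlapped no arrested peak and lay 53 to 2953 bp from one. Over all autosomal proliferating peaks 11.6% overlapped an arrested peak, and 10 peaks picked by score are too few to set against that share.

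The remaining 3 of the 5 widest were on chromosomes 16, 11 and 6. The chromosome 16 peak (3349892 to 3350555, 664 bp, score 50.11) overlapped an arrested peak with a score of 26.30. The chromosome 11 peak (88829033 to 88829581, 549 bp, score 67.09) lay 633 bp from an arrested peak and 64 bp from another proliferating peak. The chromosome 6 peak (91563516 to 91564047, 532 bp, score 60.55) overlapped an arrested peak with a score of 195.13.

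High-scoring peaks were found on every autosome. Per 1000 proliferating peaks there were 16.8 of them in all (interval 16.0 to 17.6), or 0.722 per Mb over the 2415 Mb spanned by the lists. The highest rates were 22.7 on chromosome 19 (17.6 to 29.0) and 22.1 on chromosome 12 (18.2 to 26.8). The lowest were 13.3 on chromosome 1 (11.1 to 16.0) and 13.8 on chromosome 14 (10.9 to 17.6). The intervals of chromosomes 19 and 12 lay wholly above the overall rate, and that of chromosome 1 wholly below it. These 3 were picked from 19 chromosomes by their values, and the intervals cover counting error only. Narrow peaks made up 49.3% of the high-scoring peaks on chromosome 18 and 72.1% on chromosome 15, the lowest and highest shares.

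**Figure D3:**
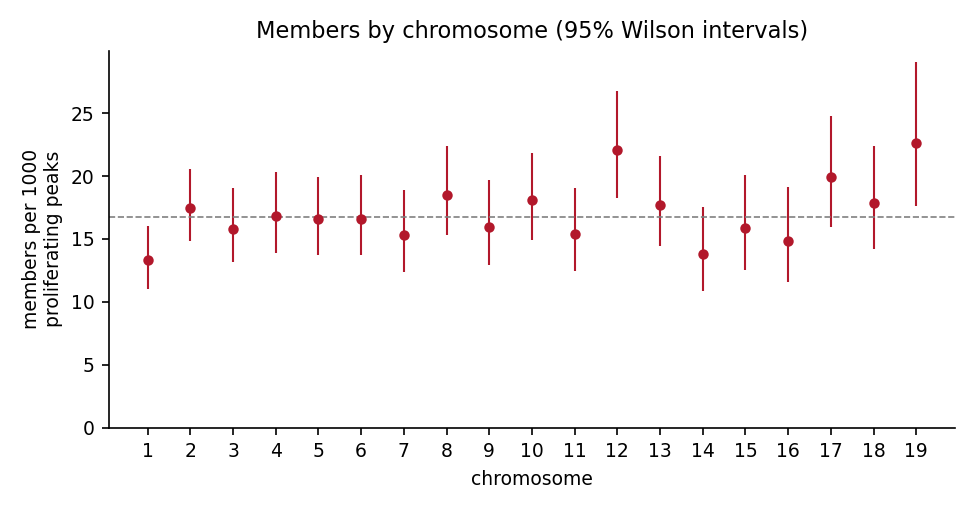
High-scoring peaks per 1000 proliferating peaks (y axis) on each autosome (x axis), with 95% Wilson intervals and the overall rate of 16.8 dashed. Points run from 13.3 on chromosome 1 to 22.7 on chromosome 19, and most intervals include the dashed line.

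Along the chromosomes the rate showed no steady rise or fall. When the called span of each autosome was cut into 10 equal parts, rates ran from 14.5 per 1000 in part 5 (12.4 to 17.04) to 19.1 in part 9 (16.7 to 21.9). The first part, next to the centromere in mouse chromosomes, had 16.4 (14.1 to 19.1), and the last part had 16.8 (14.5 to 19.4). In the first 1 Mb of the called spans 13 of 787 peaks were high-scoring, and in the last 1 Mb 9 of 853 were. Where proliferating peaks of any score are dense, 4 of 217 were high-scoring in the 2 Mb centred at 146 Mb on chromosome 4 (18.4 per 1000, 7.19 to 46.4), and 2 of 86 from 30 to 31 Mb on chromosome 17 (23.3 per 1000, 6.40 to 80.9). Both intervals include the overall rate of 16.8. From 19 to 21 Mb on chromosome 8, peaks were sparser than over that whole chromosome (43.7 per Mb). There 0 of 32 peaks were high-scoring, with an upper Wilson bound of 107 per 1000.

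High-scoring peaks were sparse, and most windows held at most 1 of them. Among 2425 windows of 1 Mb, 1197 held none, 836 held 1, 298 held 2, 67 held 3, 25 held 4 and 2 held 5. The mean was 0.719 per window. Windows with 5 were those from 54 to 55 Mb on chromosome 15, with 53 proliferating peaks, and from 28 to 29 Mb on chromosome 17, with 40. Successive high-scoring peaks had a median gap of 881454 bp, with quartiles of 380133 and 1836415 bp.

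Joined wherever gaps were at most 100 kb, the 1743 peaks gave 1533 that stood alone, 94 pairs, 6 triplets and 1 group of 4. Another high-scoring peak lay within 100 kb of 210 of them, 12.0% (10.6 to 13.7). Over all autosomal proliferating peaks, 14.2% had a high-scoring peak that close. For lower-scoring peaks weighted to the widths of the high-scoring ones it was 20.3%, a difference of -8.27 percentage points (-14.0 to -2.50), which leans on 20 lower-scoring peaks under 70 bp. Among peaks of 70 bp or more, where lower-scoring peaks of like width were plentiful, the values were 12.3% and, for lower-scoring peaks weighted to the same widths, 15.1%. The difference was -2.84 percentage points (-4.89 to -0.78). Within 1 Mb the direction was the opposite for these peaks, 78.9% against 76.3% (difference 2.54, interval 0.024 to 5.06), and with all widths it was not (-1.01, -5.47 to 3.45). Within 10 kb both intervals included 0 (differences -0.39 at 70 bp or more, -1.14 over all widths). Peaks near each other are counted in pairs, so these intervals are too narrow, and score and position come from the same list.

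The group of 4 was on chromosome 18, from 3005146 to 3006977, and its first peak began 910 bp after the first peak of either list on that chromosome. Its peaks measured 472, 412, 413 and 130 bp, scored 59.27, 59.77, 64.29 and 52.07, and were parted by 22, 139 and 244 bp. All 4 were broad. The third overlapped an arrested peak, and the others lay 592, 158 and 252 bp from one. The only 3 successive pairs within 1 kb among all high-scoring peaks were in this group, out of 14 pairs within 10 kb.

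Of the 4 shortest triplets, all but 1 mixed narrow and broad peaks. The one on chromosome 16 (28334345 to 28363572) held widths of 80, 62 and 242 bp. The one on chromosome 9 (116396526 to 116431908) held 62, 64 and 102 bp and was the only one of the 6 made up of narrow peaks. The one on chromosome 2 (78133650 to 78171559) held 63, 415 and 65 bp, and the one on chromosome 12 (108328897 to 108375065) held 68, 228 and 199 bp. None of the 18 peaks in the 6 triplets overlapped an arrested peak, where 11.6% of all autosomal proliferating peaks did. With only 18 peaks, no difference from that share can be read.

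No difference in nearness to other proliferating peaks was detectable. Any other proliferating peak lay within 10 kb of 1034 of them, 59.3% (57.0 to 61.6), against 59.8% of all autosomal proliferating peaks. With lower-scoring peaks weighted to the same widths the share was 59.2%, and the difference was 0.140 percentage points (-6.09 to 6.37). For peaks of 70 bp or more it was -0.29 (-3.27 to 2.69). Within 1 kb, 180 high-scoring peaks (10.3%, 8.98 to 11.8) had such a neighbour, against 9.21% of lower-scoring peaks without weighting. Weighted to the same widths, lower-scoring peaks had 11.2%, a difference of -0.90 percentage points (-5.59 to 3.79). For peaks of 70 bp or more that difference was 0.52 (-1.35 to 2.39). The nearest proliferating peak was at a median of 7532 bp from a high-scoring peak and 7513 bp from a lower-scoring one.

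No difference between high-scoring and lower-scoring peaks was detectable in how often they overlapped arrested peaks. At least 1 bp was shared by 201 of 1743, 11.5% (10.1 to 13.1), where 11.6% of all autosomal proliferating peaks did so. Since wider peaks overlap more, lower-scoring peaks were also weighted to the widths of the high-scoring ones, in classes of 10 bp. Their weighted share was 13.3% (8.79 to 17.7), and the difference, high-scoring minus lower-scoring, was -1.73 percentage points (-6.45 to 2.98). That interval is wide because 456 high-scoring peaks were under 70 bp, where only 20 lower-scoring peaks were found to set beside them. Among peaks of 70 bp or more the shares were 12.1% and 12.6%, and the difference was -0.53 (-2.52 to 1.46). Differences smaller than these bounds could not be seen with this many peaks.

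Overlap by at least 1 bp differed between narrow and broad high-scoring peaks. Narrow high-scoring peaks overlapped in 109 of 1092 cases, 9.98% (8.34 to 11.9), and broad ones in 92 of 651, 14.1% (11.7 to 17.02). The difference, narrow minus broad, was -4.15 percentage points (-7.36 to -0.94). The direction depended on the overlap required: with at least 50% of the peak inside arrested peaks the shares were 8.33% and 7.22% (difference 1.11, -1.46 to 3.69), and with the whole peak inside they were 5.86% and 1.997% (difference 3.86, 2.10 to 5.62). Lower-scoring peaks weighted to the widths of the broad ones overlapped in 15.0% (14.2 to 15.8), and the difference from these was -0.87 (-3.67 to 1.93). Weighted to the widths of the narrow ones they overlapped in 12.2%, and the difference was -2.24 (-9.58 to 5.09). At 70 to under 120 bp it was -0.17 (-3.00 to 2.65). Narrow lower-scoring peaks also overlapped less often than broad lower-scoring ones, 9.89% against 11.8%. By score, the share was 15.3% (12.1 to 19.1) from 50 to under 55, where 14.0% of peaks were narrow. It was 9.90% (8.04 to 12.1) from 55 to under 60, where 79.1% were narrow, and 11.9% (7.20 to 18.9) at 70 or more.

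**Figure D4:**
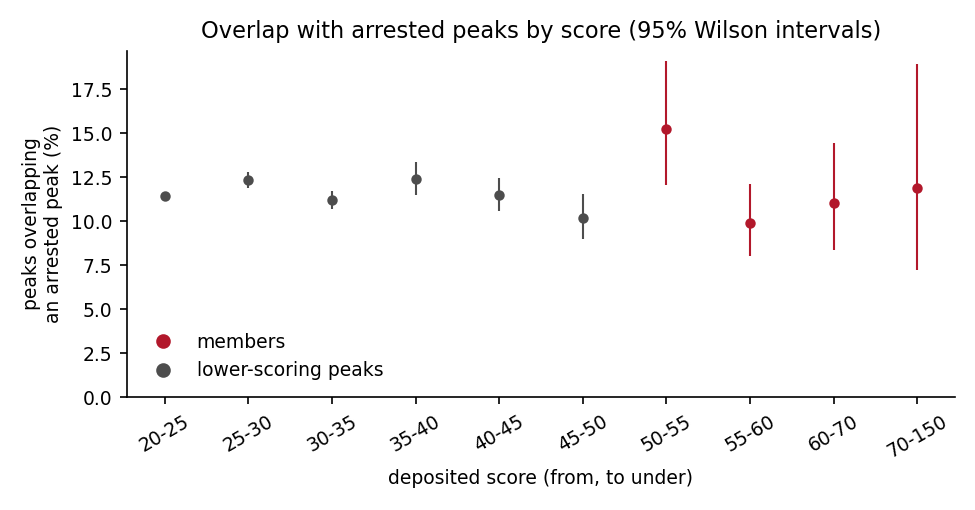
Share of autosomal proliferating peaks overlapping an arrested peak by at least 1 bp (y axis, %) by class of deposited score (x axis), with 95% Wilson intervals; high-scoring classes are red. The shares lie between 9.90% and 15.3%, the highest of them from 50 to under 55, and show no steady rise or fall with score.

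Narrow peaks that overlapped often lay wholly inside their partner. Of the 109, 64 (58.7%) were wholly within arrested peaks, as were 13 of the 92 broad ones (14.1%). Of all 12040 autosomal proliferating peaks that overlapped, 2481 (20.6%) lay wholly inside, and of the 1223 narrow lower-scoring ones 451 (36.9%) did. The narrow high-scoring peaks were narrower than these, and at 70 to under 120 bp the share wholly inside, over overlapping and other peaks, was 5.66% against 4.85% in lower-scoring peaks of like width (difference 0.815, -1.33 to 2.96). Arrested peaks measured at least 144 bp, which exceeds the width of every narrow peak. The 201 overlapping peaks touched 201 different arrested peaks, and 1 of them touched more than 1. Those partners had a median width of 247 bp and a median score of 88.79. For the partners of narrow high-scoring peaks the medians were 267 bp and 80.38, and for those of broad ones 180.5 bp and 96.53. None of these medians was weighted to width. Partners of lower-scoring peaks had medians of 186 bp and 97.45, and all arrested autosomal peaks had medians of 166 bp and 97.45. Partners with scores above the arrested median numbered 86 of 201 (42.8%).

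All 5 high-scoring peaks whose partners scored highest were broad. The first lay on chromosome 5 (60433903 to 60434313, 411 bp, score 69.37), wholly inside an arrested peak of 556 bp with a score of 514.56. The second, on chromosome 16 (31366228 to 31366440, score 50.80), shared 67.6% of its bases with a 156 bp partner scored 369.28. The partners of the chromosome 3 peak (114862899 to 114863163) and the chromosome 13 peak (25072334 to 25072523) both scored 356.87, but only 12.5% and 6.84% of the bases of these peaks were shared. The chromosome 10 peak (109019349 to 109019581) lay wholly inside a 600 bp partner scored 302.27.

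Distances to arrested peaks were of the same size in both groups. The arrested list held 657384 autosomal peaks over the 2415 Mb spanned by the lists. With so many arrested peaks, nearness to one does not by itself mark a shared site. Measured edge to edge, with 0 for an overlap, the median was 919 bp for high-scoring peaks, with quartiles of 251 and 2037 bp. Its order-statistic interval ran from 856 to 1011 bp. The median was 932 bp for lower-scoring peaks and 845 bp when these were weighted to the same widths, a value that again leans on the 20 narrowest. Without overlapping peaks the medians were 1128, 1134 and 1019 bp in that order. Within 1 kb of an arrested peak, or overlapping one, lay 907 of the high-scoring peaks, 52.0% (49.7 to 54.4), and 52.0% of the lower-scoring ones. Against lower-scoring peaks of like width the difference was -4.12 percentage points (-10.2 to 1.96). Among peaks of 70 bp or more it was 0.126 percentage points (-2.92 to 3.17). Narrow high-scoring peaks had a median distance of 1003 bp (885 to 1096), and broad ones had 785 bp (633 to 931). Edge-to-edge distance shortens as a peak widens. Centre to centre the medians were 1133 bp (1049.5 to 1241) and 1036.5 bp (923 to 1197), with overlapping intervals. Lower-scoring peaks weighted to the widths of narrow and broad ones had edge-to-edge medians of 832 and 858 bp, the first leaning on the 20 narrowest.

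**Figure D5:**
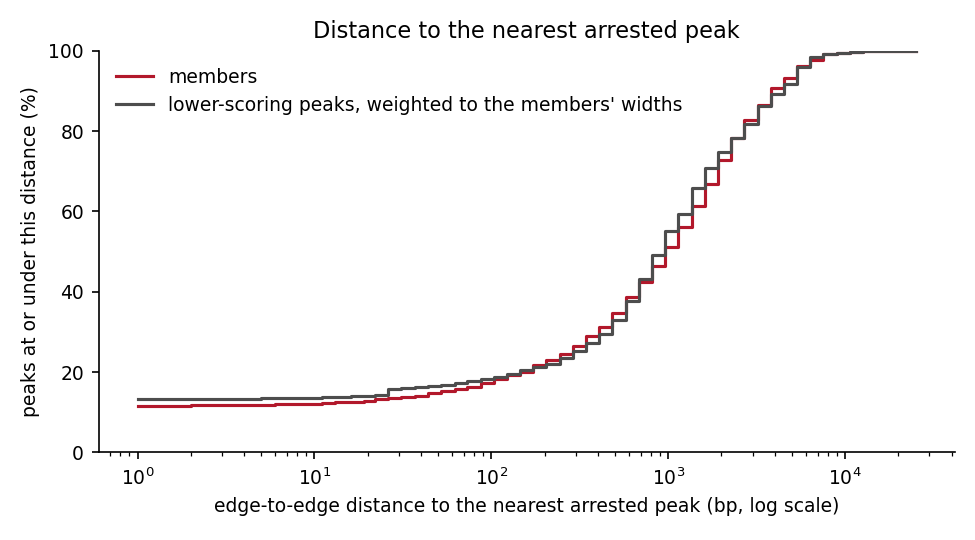
Cumulative share of peaks (y axis, %) at or under each edge-to-edge distance from the nearest arrested peak (x axis, bp, log scale), for high-scoring peaks in red and lower-scoring peaks weighted to the same widths in grey. The lines start at 11.5% and 13.3%, the overlapping shares, and stay close to each other over the whole range.

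Few high-scoring peaks, like few lower-scoring ones, were remote from every one of the 657384 arrested autosomal peaks. High-scoring peaks more than 5 kb away numbered 86, 4.93%, against 4.78% of lower-scoring peaks. The 3 farthest were a 69 bp peak on chromosome 2 (108400374 to 108400442) at 12150 bp, an 83 bp peak on chromosome 6 (137256865 to 137256947) at 11461 bp and a 267 bp peak on chromosome 1 (116293078 to 116293344) at 10688 bp. Their scores were 58.79, 58.79 and 78.82.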

How the data were processed

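The authors deposited 1 peak list per immunoprecipitate, which gives for each peak the chromosome, start, end, a MACS peak number and the authors' score. The submitters' processing notes list the build mm9 and, as tools, bedtools, Bowtie2, HOMER and MACS2. Their settings, any use of the input as control and the meaning of the score are not stated there. In MACS output of this layout the score is by convention -10 times log10 of the p-value, which would make 50 a p of 1e-05; no label or header states that this holds here. The lists hold no read counts, so depth is unknown.

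The high-scoring peaks, the regions compared and the lists were chosen with earlier results of these data known. Coordinates are mm9 and 1-based. Overlap meant at least 1 bp; a distance of 1 means adjoining bases. For the width-matched comparison, the share among lower-scoring peaks was taken in each 10 bp width class (500 bp and wider in 1 class) and weighted by the number of high-scoring peaks there, with nothing drawn at random. Intervals are 95% (Wilson for shares, normal for weighted shares and differences, order statistics for medians) and cover counting error only. No p-value was computed, since peaks of 1 library are not replicates.

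Peaks named are the 10 highest-scoring, the 5 widest, the 5 with the highest-scoring arrested partner, the 5 groups with most peaks, the 3 on each side of the limit and the 3 farthest from arrested peaks; the remaining triplets were summarised after they were seen. Python 3.11.15, numpy 2.4.6, pandas 2.3.3, SciPy 1.17.1 and matplotlib 3.10.9 were used. Differences of 0, 10 and 20 percentage points were planted in simulated data over 103832 peaks. They came out, as averages over repeated simulations, as -0.57, 10.02 and 19.51. A single simulation would scatter around these averages. Distances matched a plain search for 300 peaks. No mm9 sequence or annotation was used here. Alternatives covered score limits, overlap rules, the arrested list, width classes, neighbour distances and single chromosomes. Removal of the intervals named above on chromosomes 4, 8 and 17 was another.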

Additional observations from a re-analysis of the deposited data

Results flagged for a closer look

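On the X chromosome, outside the autosomal rule, 95 of 5905 proliferating peaks scored 50 or more. That is 16.1 per 1000 (95% Wilson interval 13.2 to 19.6), beside 16.8 on the autosomes. Of these X peaks 57 were narrower than 120 bp, beside 1092 of 1743 on the autosomes, and the widest measured 3228 bp, beside 798 bp. Of the 3 proliferating peaks on Y, 0 scored 50 or more. These values were not tested further.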

How the results depend on the processing

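Of 103 alternative values, 74 lay inside the 95% interval of the value in the report (for the number of peaks, less than 1.5 times apart), and 29 moved. Many of the 74 could hardly have moved. Leaving out peaks of 1000 bp or wider removed no high-scoring peak, and leaving out 1 chromosome kept most peaks. The count of 74 is therefore no measure of robustness. The overlap difference from lower-scoring peaks of like width ran from -2.34 to 1.14 percentage points over 14 alternatives. Its sign turned in 2 of them, to 1.14 with the upper 50% of the arrested list and to 0.084 with width classes of 50 bp, and its interval included 0 in all 14. These intervals differed in width. Against lower-scoring peaks scored under 25 alone the interval ran from -25.6 to 25.3, so only a very large difference could have been seen there. A score of at least 40 gave 8347 peaks (80.4 per 1000) with a median width of 101 bp, of which 50.6% had another within 100 kb; at least 60 gave 525 (5.06 per 1000), 72 bp and 5.90%, with 56.2% near any proliferating peak. Requiring 50% of the peak gave an overlap of 7.92%. Arrested peaks of score 50 or more gave 8.89% and a median distance of 1168 bp; the upper 50% of that list gave 5.28%, 1947 bp and a width-weighted share of 4.14%. Centre to centre, the distance was 1110 bp (1109.5). Neighbours within 10 kb and 1 Mb gave 1.49% and 78.9%; any peak within 1 kb and 100 kb gave 10.3% and 99.9%. Chosen after seeing the data were widths of 70 bp or more (median 126 bp), under 120 bp (1092 peaks, 71 bp, 9.98% overlapping) and 120 bp or more (651 peaks, 236 bp, 14.1%, 785 bp from arrested peaks, 61.8% near any peak). Without single chromosomes the rate was 16.5 to 17.1 per 1000. Where fewer or more peaks, or a wider or narrower limit, entered, counts, rates, shares and distances other than those named next move by construction. So do the median widths of groups cut by width. For the 56.2%, 61.8%, 9.98%, 14.1% and 785 bp the cause was not tested. Nor was it for the median widths of 101 and 72 bp at score limits of 40 and 60. No paired analysis was possible because each growth state had 1 library, so no replicate could be left out either. Limits set by depth could not be given without read counts.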
